A study of Mus musculus with 12 samples.

Results

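The genes described here are the mouse ErbB receptors, 4 of their ligands and a pair of direct inhibitors. They were taken by symbol: Egfr, Erbb2, Erbb3 and Erbb4, then Nrg1, Hbegf, Areg and Ereg, then Errfi1 and Lrig1. All 10 were found among the 21705 genes of the files. Their RNA was measured by sequencing polyA RNA from heart tissue of female FVB mice, in 12 libraries. Of these, 3 came from mice given erlotinib (Erlotinib_1374, Erlotinib_1375 and Erlotinib_1376) at 50 mg/kg/day and 3 from mice given sunitinib (Sunitinib_1368, Sunitinib_1369 and Sunitinib_1370) at 40 mg/kg/day. Another 3 came from mice given sorafenib (Sorafenib_1371, Sorafenib_1372 and Sorafenib_1373) at 30 mg/kg/day and 3 from controls given water (Control_1365, Control_1366 and Control_1367). Each drug was given for 14 days. Erlotinib inhibits the kinase of EGFR, whereas sunitinib and sorafenib act mainly on VEGF and PDGF receptors and, for sorafenib, RAF kinases. The doses differ, so a comparison of drugs is one of each drug at its own dose.

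ErbB receptors are tyrosine kinases that pair with each other when a ligand binds and then recruit adaptors of the RAS-ERK and PI3K-AKT pathways. In the heart, endothelial cells are known to release neuregulin 1, which binds ERBB4 on heart muscle cells, and ERBB2 joins it as the partner that binds no ligand itself. ERBB3 binds neuregulin but has a weak kinase. HB-EGF, amphiregulin and epiregulin, made from Hbegf, Areg and Ereg, are membrane proteins that proteases cut to release ligands of EGFR, and HB-EGF and epiregulin also bind ERBB4. Errfi1 encodes MIG6, which binds the kinase of active ErbB receptors and blocks it, and is itself induced by growth factors and by glucocorticoids. Lrig1 encodes a membrane protein that promotes the degradation of ErbB receptors.

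The libraries held 14.3 to 16.5 M expected counts, which are the estimated read counts per gene that RSEM gives. Markers of heart muscle cells (10 genes, among them Myh6 and Tnnt2) summed to 104500 to 112000 CPM under erlotinib, 105100 to 117100 under sunitinib, 104100 to 108600 under sorafenib and 101400 to 106400 in controls. CPM here is the TMM-scaled count per unit of library size. A score of atrial markers (mean log2 CPM minus the mean of all libraries) ran from -2.09 to 1.14 under erlotinib, -1.89 to 1.80 under sunitinib, -2.19 to 1.25 under sorafenib and 0.808 to 1.33 in controls. The atrial score thus differed between libraries of each drug group. The score of neutrophil markers was 1.51 in Erlotinib_1375 and 1.75 in Erlotinib_1376, and at most 0.735 elsewhere. The part of either in the results was not tested beyond a fit with the atrial score as a covariate.

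Promoters are shown for Errfi1, Lrig1 and Erbb2, which differed between erlotinib and sunitinib hearts, with that of Areg for its likeness to Errfi1. Windows of 6 of the 10 symbols were taken from the RefSeq promoter table (build GRCm38.p6, not the mm9 of the deposited files). Hbegf also differed between these hearts, but a window of it is not reported here, which does not show that the table lacks one. Each window runs from 250 bases before to 50 bases after an annotated start. All are written 5′ to 3′ on the strand of the gene, with capitals for TGACGTCA (the CRE that CREB proteins bind), TATAAA and CCAAT, each searched on both strands. The Errfi1 window is chr4:150854820-150855119 (plus strand), that of Areg chr5:91139349-91139648 (plus), that of Lrig1 chr6:94700096-94700395 (minus) and that of Erbb2 chr11:98412234-98412533 (plus).
Errfi1: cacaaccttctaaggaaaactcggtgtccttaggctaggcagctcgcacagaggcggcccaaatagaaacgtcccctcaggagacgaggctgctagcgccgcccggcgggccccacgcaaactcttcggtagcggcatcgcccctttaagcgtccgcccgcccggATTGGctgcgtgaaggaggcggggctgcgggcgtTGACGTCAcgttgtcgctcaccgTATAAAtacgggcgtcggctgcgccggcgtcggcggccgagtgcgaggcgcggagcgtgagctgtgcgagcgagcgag
Areg: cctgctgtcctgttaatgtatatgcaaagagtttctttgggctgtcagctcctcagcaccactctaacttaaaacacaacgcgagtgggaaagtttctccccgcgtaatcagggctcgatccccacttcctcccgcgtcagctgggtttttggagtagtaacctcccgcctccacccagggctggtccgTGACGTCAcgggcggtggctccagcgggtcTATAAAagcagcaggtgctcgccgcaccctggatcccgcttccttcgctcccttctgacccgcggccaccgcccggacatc
Lrig1: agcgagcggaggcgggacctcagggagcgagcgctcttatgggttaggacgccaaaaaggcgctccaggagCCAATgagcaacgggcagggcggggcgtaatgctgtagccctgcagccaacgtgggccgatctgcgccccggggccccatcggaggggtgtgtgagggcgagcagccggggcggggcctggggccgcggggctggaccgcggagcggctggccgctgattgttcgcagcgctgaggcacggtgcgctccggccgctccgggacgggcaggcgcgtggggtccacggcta
Erbb2: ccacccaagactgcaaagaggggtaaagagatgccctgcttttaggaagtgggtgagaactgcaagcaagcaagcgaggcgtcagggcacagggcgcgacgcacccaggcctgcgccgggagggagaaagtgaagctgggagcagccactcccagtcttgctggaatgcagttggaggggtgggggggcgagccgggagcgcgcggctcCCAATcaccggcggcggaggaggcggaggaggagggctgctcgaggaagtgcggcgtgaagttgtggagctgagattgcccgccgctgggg

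Errfi1 and Areg each hold a full CRE, whose first base lies 51 bases before the start in Errfi1 and 61 in Areg, followed by TATAAA at 28 and 31 bases before it. The CRE stands in 1.79% and TATAAA in 13.6% of the 32851 promoter windows of the table. A second Errfi1 window, chr4:150853546-150853845, held neither. CCAAT, found in 37.4% of windows, lies 85 bases before the start of Errfi1 (as ATTGG), 179 before that of Lrig1 and 41 before that of Erbb2. No window of these 4 genes, or of Egfr and Erbb4, held the AP-1 motif TGANTCA (7.81% of windows), the glucocorticoid response element (searched as GNACA and TGTNC with 3 bases between, 0.475%) or the E-box CACGTG (7.15%). A match is a description of letters and not a site in use.

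Per transcript length, Errfi1, Hbegf and Lrig1 had the highest levels of the 10 genes, and Areg and Ereg were near 0. The mean over the 12 libraries was 21.8 TPM for Errfi1 (range 9.32 to 53.6), 16.3 for Hbegf (7.34 to 31.7) and 10.1 for Lrig1 (7.44 to 12.8). TPM is the authors' unit, which divides by transcript length and then by the library's sum. The order of the first 3 differed between groups. Erlotinib hearts averaged 44.9 TPM for Errfi1, 24.5 for Hbegf and 8.45 for Lrig1, whereas sunitinib hearts averaged 10.5, 10.6 and 12.1 TPM for the same genes. The receptors followed with means of 3.01 TPM for Erbb3, 2.40 for Erbb2, 1.77 for Egfr and 1.68 for Erbb4. Nrg1 averaged 0.333 TPM, Ereg 0.0475 and Areg 0.0317. Of neighbours in this order, only Lrig1 with Erbb3 and Erbb4 with Nrg1 had ranges that did not overlap. Errfi1 was above Hbegf in 6 of 12 libraries, Erbb2 above Egfr in 9 and Egfr above Erbb4 in 7, so these pairs had no fixed order over all libraries. Within groups some of them separated. Under erlotinib, Errfi1 (39.2 to 53.6 TPM) was above Hbegf (18.8 to 31.7). Erbb2 was above Egfr under sunitinib (2.50 to 3.14 and 1.07 to 2.33) and sorafenib (2.40 to 2.94 and 1.25 to 2.11). In the other groups these 2 pairs overlapped, and Egfr and Erbb4 overlapped in every group. TPM of Egfr, Erbb4 and Nrg1 also moves with the estimated isoform, since the effective length of Egfr ran from 3534 to 5451 bases between libraries, that of Erbb4 from 2652 to 4182 and that of Nrg1 from 2062 to 3798.

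**Figure D1:**
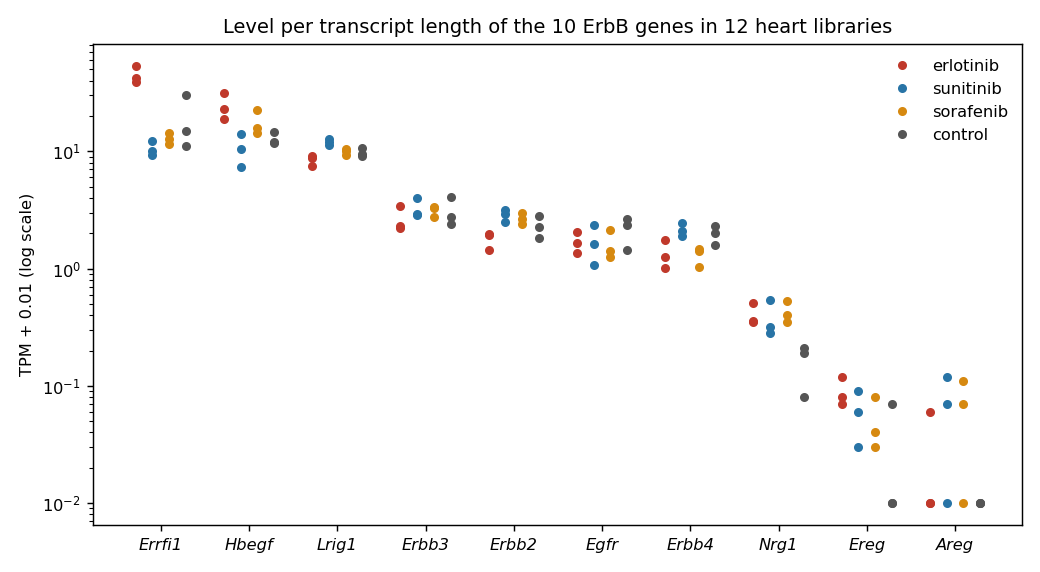
TPM plus 0.01 of each of the 10 genes on a log scale, 1 point per library (3 per group; from left, erlotinib, sunitinib, sorafenib, control). Errfi1 reaches 53.6 TPM under erlotinib, the 4 receptors lie between 1.01 and 4.05 TPM, and the 3 Nrg1 points of controls lie below the 9 of the drugs.

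Groups were compared on counts with the edgeR quasi-likelihood test, fitted to 13440 genes in all 12 libraries, with Benjamini-Hochberg adjustment over all of them and a threshold of 0.05. Of the 10 genes, 8 passed the filter on low counts and were tested, and Areg and Ereg were not. For any difference among the 4 groups, Errfi1 (adjusted p = 0.0274) and Hbegf (adjusted p = 0.0390) passed, where 5.39% of all genes did. Neither call held in every fit that left out 1 library. That of Errfi1 was lost without Sunitinib_1369, Sunitinib_1370, Sorafenib_1373 or any of the 3 erlotinib libraries (adjusted p 0.0561 to 0.116). That of Hbegf was lost without Control_1365, Control_1367, Sunitinib_1369, Sunitinib_1370, Sorafenib_1373, Erlotinib_1375 or Erlotinib_1376 (0.0525 to 0.133), with no filter on low counts (0.0604) and with the atrial score as a covariate (0.0955). Lrig1 (0.0577), Nrg1 (0.0730), Erbb2 (0.112), Erbb4 (0.196), Egfr (0.735) and Erbb3 (0.825) did not pass. In erlotinib against control, 0 of the 8 passed, where 0.283% of all genes passed, and Errfi1, Hbegf and Nrg1 had an unadjusted p under 0.05, where 15.5% of all genes did. Nrg1 passed the filter on low counts only through drug libraries, as described with its values, so that share is no measure for it. In sunitinib against control 0 of 8 passed (0.0% of all genes, with 1460 genes at an unadjusted p under 0.05 and 82 passing with DESeq2). In sorafenib against control 0 of 8 passed (0.00744% of all genes). Between drugs, 4 of 8 passed for erlotinib against sunitinib (11.9% of all genes), 1 of 8 for erlotinib against sorafenib (2.7%) and 0 of 8 for sunitinib against sorafenib (0.0372%).

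**Figure D2:**
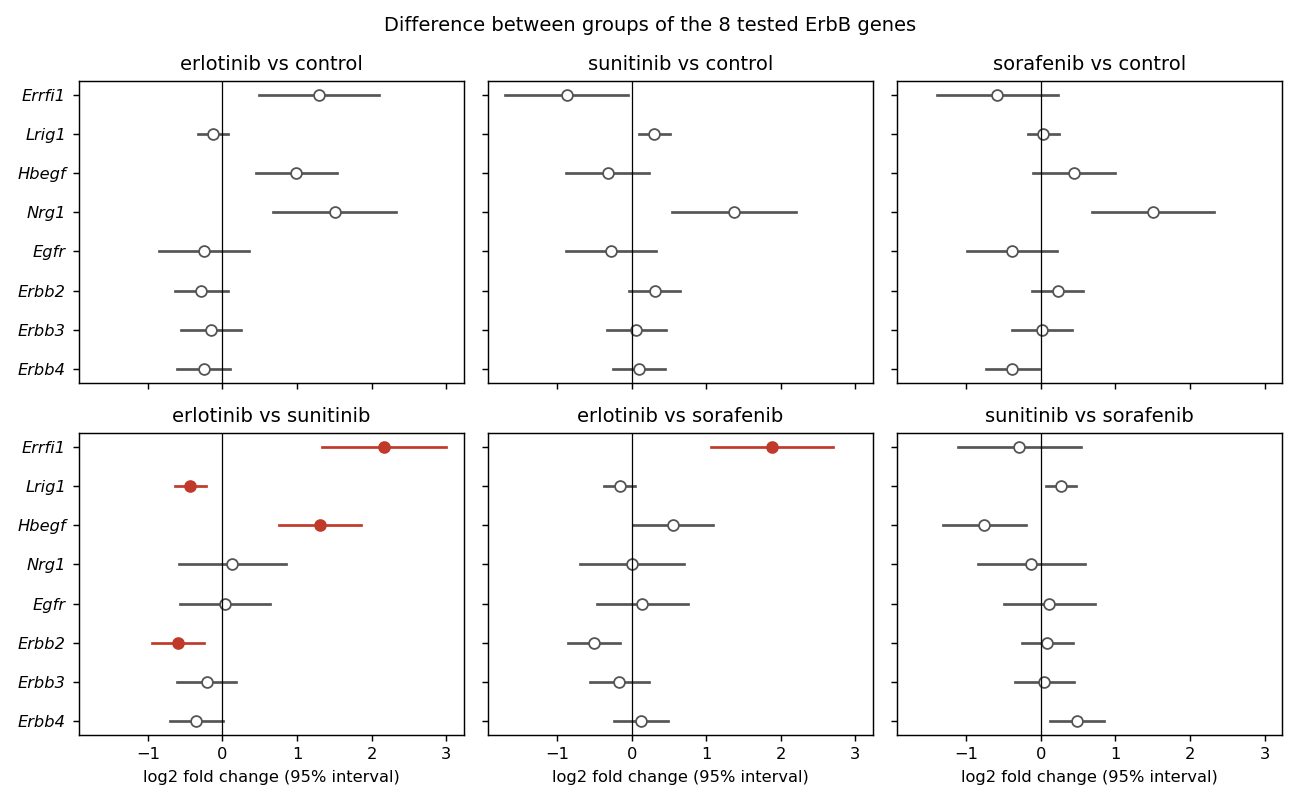
Log2 fold change of the 8 tested genes in the 6 comparisons, first-named group over second, with 95% intervals of the edgeR fit. Filled red points passed at adjusted p under 0.05. They are Errfi1, Hbegf, Lrig1 and Erbb2 in erlotinib against sunitinib, and Errfi1 in erlotinib against sorafenib.

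Errfi1, the receptor inhibitor, showed the largest difference of the 8, with its highest levels under the drug that inhibits EGFR. It had 124.8, 124.0 and 173.3 CPM under erlotinib, 33.8, 27.0 and 32.8 under sunitinib, and 43.2, 32.6 and 38.7 under sorafenib, against 32.6, 97.2 and 42.0 in controls. Every erlotinib library was above every other library, and Control_1366 stood well above the other controls and above all sunitinib and sorafenib libraries. Erlotinib hearts averaged 140.7 ± 28.2 CPM and sunitinib hearts 31.2 ± 3.67 (SD, n = 3 each), a 4.50-fold difference (log2 fold change 2.17 ± 0.37, SE; adjusted p = 0.00908 by edgeR). This call held without any single library of either group, with adjusted p between 0.0180 and 0.0418. Against the 38.2 ± 5.31 CPM of sorafenib hearts the difference was 3.68-fold (log2 1.88 ± 0.36, adjusted p = 0.0360 by edgeR). That call was lost when any single library of the 2 groups was left out (adjusted p 0.0594 to 0.136) and with no filter on low counts (0.0513). Fewer cells of a type and less RNA per cell cannot be told apart in these bulk heart libraries.

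Erlotinib against control gave a log2 fold change of 1.30 ± 0.36 for Errfi1, with 140.7 ± 28.2 CPM under erlotinib and 57.3 ± 34.9 in controls (SD, n = 3 each). It did not pass in edgeR (adjusted p = 0.151) and passed in DESeq2 (adjusted p = 0.0276). The value moved both ways when single libraries were left out. Without Control_1366 the log2 fold change was 1.92 and the adjusted p 0.00291 in edgeR. Without any other single library of either group it was 1.02 to 1.38 and did not pass (adjusted p 0.200 to 0.477 in edgeR). The lowest value, 1.02, was without Control_1365, and the highest adjusted p was without Erlotinib_1376. Control_1366 also stood apart in a list of glucocorticoid induced genes, with a score of 0.500 against -0.654 and -0.254 in the other controls. The erlotinib libraries scored 0.448 to 0.809 on the same list, and Sorafenib_1371, whose Errfi1 was at 43.2 CPM, scored 0.483. The part of these genes in the Errfi1 level was not tested. Sunitinib against control gave -0.87 ± 0.36 (adjusted p = 0.438) and sorafenib against control -0.58 ± 0.36 (adjusted p = 0.546). The sorafenib value turned to 0.04 without Control_1366 and that of sunitinib to -0.26.

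**Figure D3:**
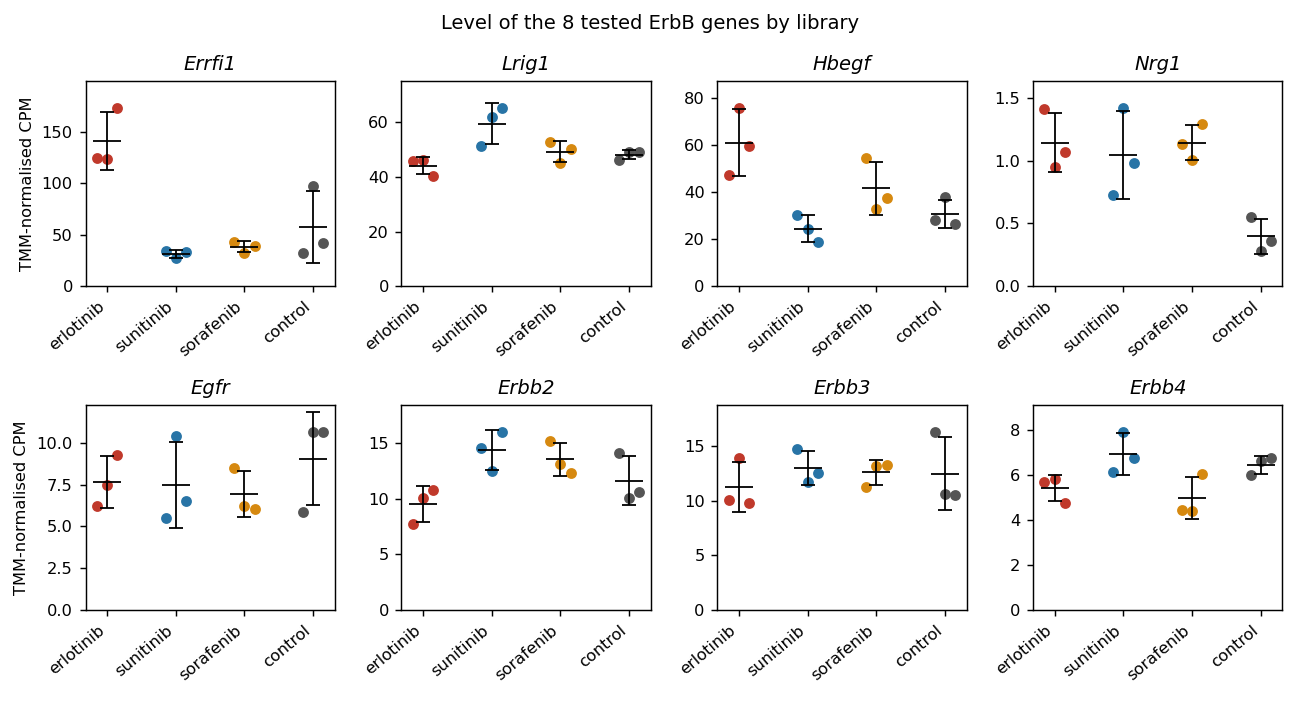
TMM-normalised CPM of the 8 tested genes, 1 point per library, with bars for the mean and SD of 3 libraries (groups from left: erlotinib, sunitinib, sorafenib, control). The erlotinib points of Errfi1 lie at 124.0 to 173.3 CPM, above all others, and Control_1366 is the high control point at 97.2.

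Lrig1, the other inhibitor, was lower in erlotinib than in sunitinib hearts. It had 45.8, 46.2 and 40.5 CPM under erlotinib, 51.3, 62.1 and 65.4 under sunitinib, and 52.7, 45.1 and 50.3 under sorafenib, against 46.3, 49.0 and 49.4 in controls. The sunitinib libraries were above all erlotinib and control libraries, and the erlotinib libraries were just below all controls. Erlotinib hearts averaged 44.2 ± 3.18 CPM and sunitinib hearts 59.6 ± 7.39 (SD, n = 3 each), a log2 fold change of -0.43 ± 0.09 (adjusted p = 0.0137 by edgeR). The call was lost without Sunitinib_1369 (adjusted p = 0.0521), Sunitinib_1370 (0.0530) or Erlotinib_1376 (0.0780). Sunitinib against control gave 0.30 ± 0.09 (adjusted p = 0.308) and erlotinib against control -0.13 ± 0.10 (adjusted p = 0.562). Lrig1 had fractional expected counts in 11 of 12 libraries, the cause of which was not tested.

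Hbegf, the ligand with the highest TPM, was higher in erlotinib than in sunitinib hearts. It had 47.6, 76.0 and 59.8 CPM under erlotinib, 30.4, 24.4 and 18.9 under sunitinib, and 54.4, 32.9 and 37.7 under sorafenib, against 28.1, 37.8 and 26.4 in controls. All erlotinib libraries were above all sunitinib and control libraries, and Sorafenib_1371 reached into the erlotinib range. Erlotinib hearts averaged 61.1 ± 14.2 CPM and sunitinib hearts 24.6 ± 5.76 (SD, n = 3 each), a 2.48-fold difference (log2 1.31 ± 0.25, adjusted p = 0.0110 by edgeR). This call held without any single library of either group, with adjusted p between 0.0120 and 0.0441. Erlotinib against control, 61.1 ± 14.2 and 30.8 ± 6.15 CPM, gave a log2 fold change of 0.99 ± 0.25, which passed in DESeq2 (adjusted p = 0.00235) and not in edgeR (adjusted p = 0.111). Erlotinib against sorafenib gave 0.55 ± 0.24 (adjusted p = 0.247) and sunitinib against sorafenib -0.76 ± 0.25 (adjusted p = 0.353).

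Nrg1, the neuregulin that ERBB3 and ERBB4 bind, was scarce, with 4 to 22 counts per library. It had 1.41, 0.951 and 1.07 CPM under erlotinib, 0.729, 1.42 and 0.984 under sunitinib, and 1.13, 1.01 and 1.29 under sorafenib, against 0.551, 0.283 and 0.358 in controls. All 9 drug libraries, at 0.729 to 1.42 CPM, were above all controls. The log2 fold change was 1.51 ± 0.38 for erlotinib (adjusted p = 0.0997), 1.38 ± 0.39 for sunitinib (0.286) and 1.50 ± 0.38 for sorafenib (0.157), so none passed in edgeR. With limma on log2 of the scaled signal plus 10, the same values were 0.87, 0.80 and 0.91. These 3 comparisons share the same 3 controls and do not count as separate evidence. Nrg1 passed the filter on low counts (10 counts, or 0.634 CPM in the median library) only through drug libraries, since 0 of 3 controls reached it, so a difference was built into its being tested. With no filter the erlotinib value was 1.52 (adjusted p = 0.113). Endothelial markers (12 genes) summed to 2223 to 2486 CPM under erlotinib, 1853 to 2133 under sunitinib and 2532 to 2604 under sorafenib, against 1942 to 2116 in controls. Endocardial markers summed to 158.7 to 173.4, 171.9 to 304.6 and 133.2 to 157.7 CPM in the 3 drug groups in that order, against 146.1 to 325.0 in controls. The part of either cell type in the ligand levels was not tested.

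Areg had 0 to 2 counts and Ereg 0 to 7 counts in every library, and neither was tested. Ereg had 0.256, 0.444 and 0.334 CPM under erlotinib, 0.304, 0.194 and 0.0703 under sunitinib, and 0.126, 0.296 and 0.0679 under sorafenib, against 0, 0 and 0.239 in controls. The lowest erlotinib library and the highest control held 4 counts each. Areg was at 0 in all 3 controls and at 0.0640, 0 and 0 CPM under erlotinib. A count of 0 allows a level of up to 0.178 to 0.212 CPM at these depths (3 counts, counting error only), so a difference in Areg was not detectable at this depth. Areg was thus near 0. Its promoter window was shown because it shares the CRE and TATAAA with the Errfi1 window shown above, so the sharing is no separate result. The part of these motifs in either level was not tested.

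Among the receptors, Erbb2, the partner without a ligand of its own, was lower in erlotinib than in sunitinib hearts. It had 7.74, 10.1 and 10.8 CPM under erlotinib, 14.6, 12.5 and 16.0 under sunitinib, and 15.2, 13.1 and 12.3 under sorafenib, against 14.1, 10.0 and 10.6 in controls. The erlotinib libraries were below all sunitinib and sorafenib libraries and overlapped the controls. Erlotinib hearts averaged 9.53 ± 1.58 CPM and sunitinib hearts 14.4 ± 1.76 (SD, n = 3 each), a log2 fold change of -0.59 ± 0.16 (adjusted p = 0.0336 by edgeR). The call was lost without Sunitinib_1368, Sunitinib_1370 or any of the 3 erlotinib libraries (adjusted p 0.0652 to 0.105). Erlotinib against sorafenib gave -0.51 ± 0.16 (adjusted p = 0.111) and erlotinib against control -0.28 ± 0.16 (adjusted p = 0.436).

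Egfr, the target of erlotinib, did not pass in any comparison. It had 6.21, 7.48 and 9.29 CPM under erlotinib, 5.53, 10.4 and 6.54 under sunitinib, and 8.50, 6.22 and 6.05 under sorafenib, against 5.86, 10.7 and 10.6 in controls. The 4 groups overlapped. Erlotinib against control gave a log2 fold change of -0.24 ± 0.28 with a 95% interval of -0.85 to 0.36 (adjusted p = 0.728), so both a fall and a smaller rise lie within the interval.

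Erbb4, the neuregulin receptor of heart muscle cells, had 5.70, 5.83 and 4.74 CPM under erlotinib, 6.13, 7.94 and 6.75 under sunitinib, and 4.47, 4.38 and 6.05 under sorafenib, against 5.99, 6.64 and 6.75 in controls. The erlotinib libraries were just below all sunitinib and control libraries, and one sorafenib library reached the control range. Erlotinib against control gave -0.25 ± 0.17 (adjusted p = 0.501), sorafenib against control -0.38 ± 0.17 (adjusted p = 0.364) and sunitinib against sorafenib 0.49 ± 0.17 (adjusted p = 0.349). Erbb3 had 10.1, 13.9 and 9.75 CPM under erlotinib, 14.8, 11.7 and 12.5 under sunitinib, and 11.3, 13.2 and 13.3 under sorafenib, against 16.3, 10.6 and 10.5 in controls. Its groups overlapped in every comparison, and erlotinib against control gave -0.15 ± 0.19 (adjusted p = 0.758).

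Overlap between groups was counted over the 7 tested genes other than Nrg1, whose difference from the controls was built into its passing the filter. In erlotinib against control, 4 of the 7 had groups that did not overlap, namely Errfi1 and Hbegf above and Erbb4 and Lrig1 below the controls. The share among all genes tested was 20.6%. The counts were 1 of 7 for sunitinib against control (Lrig1; 14.6% of all genes), 0 of 7 for sorafenib against control (16.3%) and 5 of 7 for erlotinib against sunitinib (33.7%). They were 2 of 7 for erlotinib against sorafenib (25.2%) and 2 of 7 for sunitinib against sorafenib (14.6%). The median log2 fold change of the 7 genes in erlotinib against control was -0.15, with 2 of 7 above 0, beside -0.01 and 48.2% over all genes.

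Across the 12 libraries, Hbegf and Errfi1 moved together (Pearson r = 0.77, Spearman rho = 0.81 on log2 CPM), while Erbb2 and Errfi1 moved in opposite directions (r = -0.76, rho = -0.62). These are descriptions, since the libraries of a group share their treatment. Among 11685 other named genes averaging at least 1 CPM, those most like Errfi1 were Azin1 (r = 0.99, rho = 0.92), S1pr1 (r = 0.99, rho = 0.92) and Sema6b (r = 0.98, rho = 0.83). Azin1 encodes an inhibitor of antizyme, S1pr1 a receptor for sphingosine 1-phosphate on endothelial cells, and Sema6b a semaphorin. Over the 9 libraries without erlotinib, r was 0.99, 0.96 and 0.94 for the same 3 genes, where Control_1366 is the high point for Errfi1. Nearest to Hbegf were Aff4 (r = 0.95), Ubxn4 (0.94) and Rapgef1 (0.94). Near Lrig1 were Fchsd2 (0.96) and Rpusd4 (0.96), and nearest to Erbb2 were Psmf1 (0.94), Pvrl2 (0.93) and Keap1 (0.91).

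Other genes around the receptors were taken from 4 lists. None of their genes passed in erlotinib against control in the edgeR fit of all 12 libraries. Over all genes tested, 0.283% passed in this comparison, 48.2% were above 0 and the median log2 fold change was -0.01. Of 7 further ErbB ligands, 5 were tested and 0 passed, with 1 of 5 above 0 and a median log2 fold change of -0.06. Nrg2, another neuregulin, gave -0.95 ± 0.55, Egf, the founding ligand of EGFR, -0.29 ± 0.25 and Tgfa, another EGFR ligand, 0.10 ± 0.37. Of 10 genes for the proteases that release ligands and their regulators, 0 passed, 8 were above 0 and the median was 0.27. Rhbdf1, a partner that brings the protease ADAM17 to the cell surface, gave 0.29 ± 0.10 (adjusted p = 0.184), Bace1, a protease that cuts neuregulin in nerve, -0.15 ± 0.06 (adjusted p = 0.274) and Adam19, a metalloprotease, 0.73 ± 0.34 (adjusted p = 0.345). Of 18 genes for receptor turnover and dephosphorylation, 0 passed, 11 were above 0 and the median was 0.03. The tyrosine phosphatase genes Ptpn12 (0.22 ± 0.07), Ptpn2 (0.27 ± 0.09) and Ptpn1 (0.18 ± 0.07) had the smallest p there. Of 27 tested adaptors and first signalling steps, 0 passed, 12 were above 0 and the median was -0.02. The adaptor gene Grb10 gave 0.34 ± 0.09 (adjusted p = 0.121), the transcription factor gene Stat5a -0.41 ± 0.11 (0.126) and the PI3K subunit gene Pik3r2 -0.29 ± 0.10 (0.197). Grb10 passed in DESeq2 (adjusted p = 0.0376), and Stat5a passed in edgeR without Control_1366 (adjusted p = 0.0343).

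Genes that growth factor signalling is known to induce had mostly positive fold changes in erlotinib against control hearts. Of these, 1 of 24 passed, where 0.283% of all genes did. Spry4, a feedback inhibitor of receptor tyrosine kinase signalling, averaged 36.6 ± 7.99 CPM under erlotinib and 14.1 ± 1.03 in controls (SD, n = 3 each), a log2 fold change of 1.37 ± 0.15 (adjusted p = 0.00643 by edgeR). The Spry4 call was lost without Control_1365 or Control_1367, with adjusted p up to 0.0848. Of the 24 genes 19 were above 0 (48.2% of all genes), with a median of 0.38. Sorafenib against control gave 17 of 24 above 0 (49.8% of all genes) and a median of 0.19. Sunitinib against control gave 11 of 24 (50.4%) and -0.03. These comparisons share the same controls. In erlotinib against control, the AP-1 genes Junb (0.93 ± 0.19) and Fosl2 (0.93 ± 0.25) did not pass (adjusted p = 0.0638 and 0.137 by edgeR). Both passed in DESeq2 (adjusted p = 0.000232 for Junb and 0.00573 for Fosl2). Junb also passed when only the 2 groups were fitted (0.0288), and Fosl2 without Control_1366 (0.0189). When single libraries of the 2 groups were left out, Junb never passed in edgeR (adjusted p 0.0685 to 0.271). The adjusted p of Fosl2 reached 0.448 in such fits. Of 19 glucocorticoid induced genes, 0 passed in erlotinib against control (0.283% of all genes) and 19 were above 0 (48.2%), with a median of 0.50. Cebpd, a transcription factor gene, gave 1.04 ± 0.39, the clock gene Per1 0.42 ± 0.17 and the kinase gene Sgk1 0.64 ± 0.27. Cebpd passed in edgeR without Control_1366 (log2 fold change 1.67, adjusted p = 0.0203), and its adjusted p reached 0.571 without another library. The growth factor and glucocorticoid lists share Dusp1. Both lists were chosen with earlier results of these data known, so their shares beside those of all genes are descriptions and no test.

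**Figure D4:**
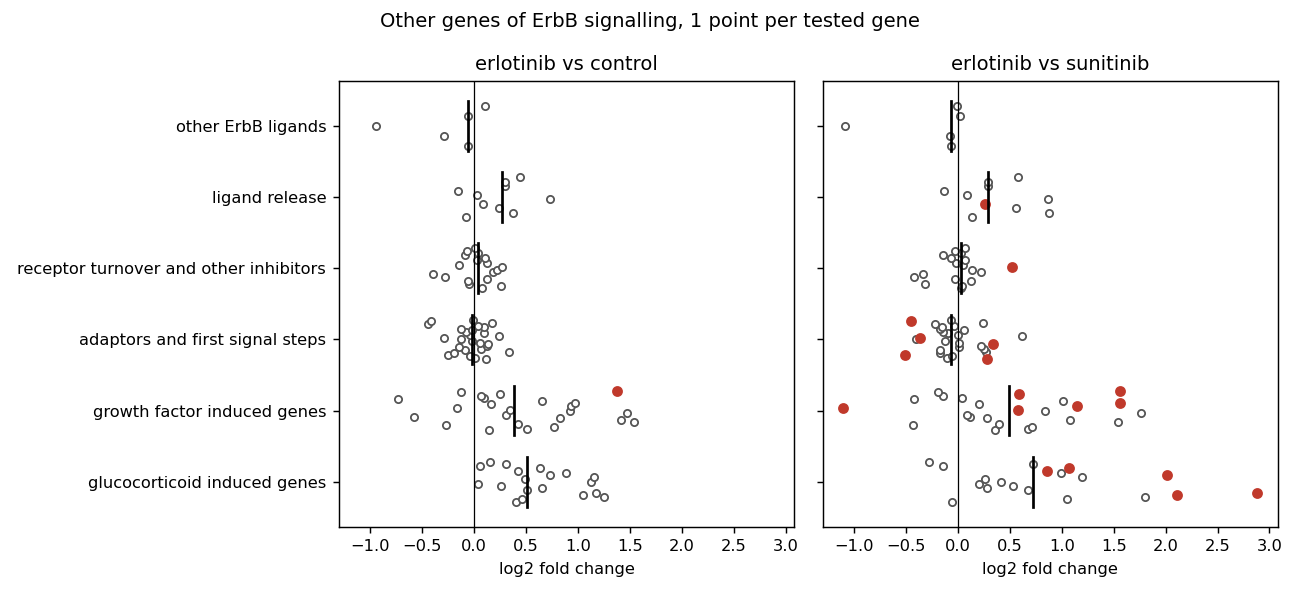
Log2 fold change of each tested gene of 6 lists in erlotinib against control (left) and erlotinib against sunitinib (right), with a bar at each list's median. Filled red points passed at adjusted p under 0.05. Against control the red point is Spry4 at 1.37, and against sunitinib 18 genes are red.

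Against sunitinib, 18 of the 102 genes tested over the 6 lists passed, where 11.9% of all genes did, of which 4 held without any single library of either group. Those were Spry4 (1.56 ± 0.15, adjusted p = 0.000318), Junb (1.14 ± 0.19, adjusted p = 0.00573) and Ptpn2 (0.52 ± 0.09, adjusted p = 0.00600), higher under erlotinib, and the adaptor gene Gab1 (-0.51 ± 0.09, adjusted p = 0.00537), lower. Among growth factor induced genes, 5 of 24 were higher and 1 lower, where 5.52% of all genes were higher and 6.35% lower. Among glucocorticoid induced genes 5 of 19 were higher (Per1, Cebpd, Nfkbia, Sgk1 and Ddit4) and 0 lower. Adaptors gave 2 of 27 higher and 3 lower, ligand release 1 of 10 higher and turnover 1 of 18 higher, and of the further ligands 0 of 5 passed. Against sorafenib, 6 of the 102 genes tested over the 6 lists passed, where 2.7% of all genes did, and each of the 6 lost its call without at least 1 of the libraries. In sunitinib and in sorafenib against control, 0 genes of these lists passed. The 6 lists were chosen with earlier results of these data known, so these shares too are descriptions.

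**Figure D5:**
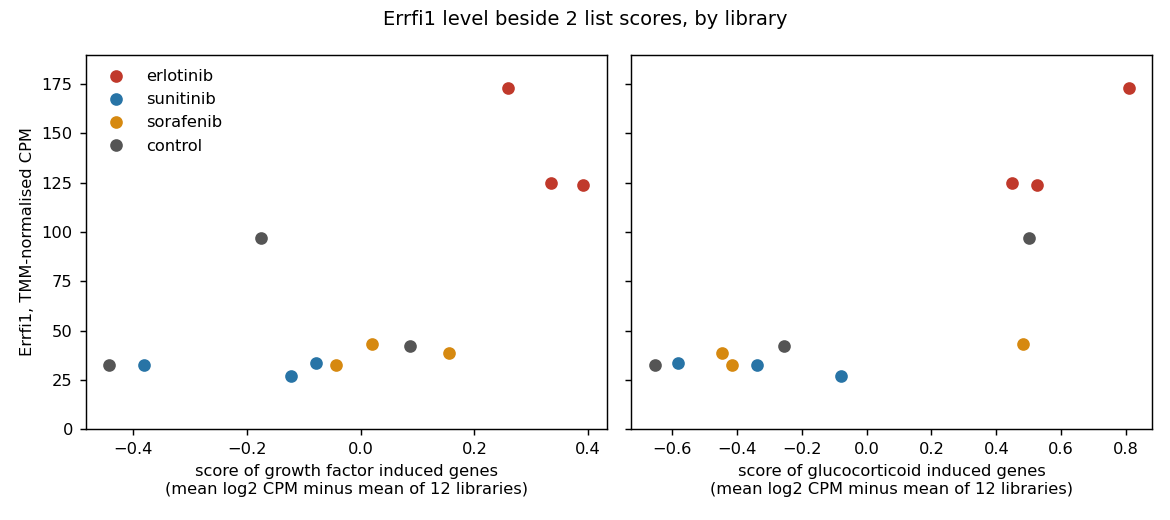
Errfi1 level in CPM (vertical axis) against the score of growth factor induced genes (left) and of glucocorticoid induced genes (right), 1 point per library. The erlotinib libraries score 0.258 to 0.392 on the left and 0.448 to 0.809 on the right, and Control_1366 (97.2 CPM) scores 0.500 on the right.

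On the growth factor list, whose members do not include Errfi1, erlotinib libraries scored 0.258 to 0.392, sunitinib libraries -0.382 to -0.0781, sorafenib libraries -0.0442 to 0.155 and controls -0.443 to 0.0873. The erlotinib libraries were above all others. On the glucocorticoid list the sunitinib libraries scored -0.581 to -0.0776 and the sorafenib libraries -0.445 to 0.483. Control_1366 and Sorafenib_1371 lay within the range of the erlotinib libraries on that list.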

How the data were processed

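PolyA RNA of mouse heart was sequenced in 12 stranded libraries, per the labels. The authors deposited RSEM expected counts, TPM and a scaled signal (the expected count times 1 factor per library). The submitters' processing notes name Picard, SAMtools, RSEM and the build mm9, and the sources used here name no aligner or annotation release. The deposited TPM of the 21705 genes used here summed to 54.9% to 60.8% of the full scale per library. These genes are thus part of a larger set. The sum leaves out any row without a gene symbol. Expected counts were rounded and filtered with filterByExpr (13440 of 21705 genes kept), with totals of 14.3 to 16.5 M per library. They were TMM-scaled and fitted with edgeR 4.0.16 (robust quasi-likelihood, R 4.3.3, 1 coefficient per group, 8 residual degrees of freedom). Tests were two-sided with Benjamini-Hochberg adjustment over all genes tested, and the fit was tested on simulated data. The biological coefficient of variation was 0.128. SE and 95% intervals come from this fit. Counting limits cover counting error only. Replicate libraries differed by more than sampling noise. The labels name no batch, and do not say outright that libraries are separate animals. The p-values thus set group differences against the spread between these libraries, which may be technical.

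Alternatives were DESeq2 1.42.0, RLE scaling, no filter, removal of the 20 most abundant genes, a fit of just the compared groups, limma 3.58.1 on log2 of the deposited scaled signal plus 1 or 10, and leaving out each library. A fit with the atrial score as a covariate was added after the data were seen. From each pathway list the text names genes that passed, or else the 3 of smallest p in erlotinib against control. Genes alike in pattern were the 3 of highest Pearson r on log2 CPM (prior count 2), of which 1 is not reported here. Members and lists were chosen with earlier results of these data known.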

Additional observations from a re-analysis of the deposited data

How the results depend on the processing

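Over 48 comparisons of single ErbB genes and 670 alternative fits, 623 values kept their direction and their side of the threshold, 15 no longer passed, 3 came to pass and 29 changed sign, all 29 of them values that did not pass. The genes whose calls moved are named with their values in the text above. No paired analysis was possible because the library numbers of the 4 groups are all different.

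Tested with DESeq2, 2 ErbB genes passed in erlotinib against control (0 in edgeR), as did 367 genes in all (38 in edgeR). The DESeq2 counts of all genes were 82 for sunitinib against control, 175 for sorafenib against control, 828 for erlotinib against sorafenib, 139 for sunitinib against sorafenib and 1663 for any difference. With no filter the counts were 58 for erlotinib, 1 for sunitinib and 20 for sorafenib against control and 9 for sunitinib against sorafenib. With no filter 0 ErbB genes passed for erlotinib against sorafenib and 1 for any difference. Fitting only the 2 groups compared gave 686 genes for erlotinib against sorafenib and 0 for sunitinib against sorafenib. With limma 4 genes passed for sorafenib against control with either pseudocount, and 3 for sunitinib against sorafenib with a pseudocount of 1. With the atrial score, 1 gene passed for erlotinib, 1 for sunitinib and 0 for sorafenib against control, 2 for sunitinib against sorafenib and 434 for any difference, among them 1 ErbB gene.

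Leaving out 1 library gave 0 to 1 ErbB genes in erlotinib against control, 2 to 3 in erlotinib against sunitinib, 0 to 0 in erlotinib against sorafenib and 0 to 3 for any difference. All genes passing then numbered 0 to 236 (erlotinib), 0 to 11 (sunitinib) and 0 to 84 (sorafenib) against control, 404 to 1313 for erlotinib against sunitinib, 1 to 189 for erlotinib against sorafenib, 0 to 37 for sunitinib against sorafenib and 63 to 999 for any difference. The highest count against control for erlotinib, 236, was without Control_1366.

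Of the genes of the 6 pathway lists, 1 passed in erlotinib against control, 18 in erlotinib against sunitinib, 6 in erlotinib against sorafenib and 0 in the other comparisons. Leaving out a library gave 0 to 5, 4 to 16 and 0 to 3 of them in those 3 comparisons, and 0 to 0 in each of the others. DESeq2 gave 5 in erlotinib against control, 14 in erlotinib against sorafenib, and 1 each in sunitinib against control and against sorafenib. Fitting only the 2 groups compared gave 2 in erlotinib against control and 14 in erlotinib against sorafenib.

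Log2 fold changes changed sign as follows. With the atrial score, Lrig1 was at -0.028 in sorafenib against control, Egfr at -0.0079 in erlotinib against sunitinib and Nrg1 at -0.013 in erlotinib against sorafenib, where limma gave Nrg1 -0.047 and -0.032. With limma and a pseudocount of 1, Tgfa was at -0.014 in erlotinib against control. Leaving out a library gave these ranges. Against control they were -0.33 to 0.091 for Erbb3 and -0.23 to 0.42 for Tgfa under erlotinib, and -0.049 to 0.30 for Erbb3 and -0.0056 to 0.19 for Erbb4 under sunitinib. Under sorafenib they were -0.10 to 0.26 for Erbb3, -0.86 to 0.036 for Errfi1 and -0.015 to 0.095 for Lrig1. In erlotinib against sunitinib they were -0.15 to 0.34 for Egfr and -0.077 to 0.42 for Nrg1, and in erlotinib against sorafenib -0.014 to 0.32 for Egfr and -0.17 to 0.12 for Nrg1. In sunitinib against sorafenib they were -0.20 to 0.29 for Egfr, -0.055 to 0.12 for Erbb3 and -0.42 to 0.080 for Nrg1. The cause of these changes was not tested. Depth limits Areg, Ereg and Nrg1 most, with at most 2, 7 and 22 counts per library.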
